A study of Homo sapiens with 12 samples.

Results

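The subunits of the RGD-binding integrins were compared in A549 cells that did or did not express GFI1 and that were attached to the dish or floating. They were taken as the rows of the gene count table whose gene name was 1 of 8 symbols, the alpha subunits ITGA5, ITGAV and ITGA8 and the beta subunits ITGB1, ITGB3, ITGB5, ITGB6 and ITGB8. All 8 were found among the 58735 genes of the table, each in 1 row. A549, an established line of human lung adenocarcinoma, normally grows on the dish, and GFI1 is a zinc-finger transcriptional repressor of blood cell development whose effect on anchorage the study examined. RNA-Seq libraries of 4 groups were available, with 3 libraries in each. Attached control cells were A549 cells grown on culture-treated plastic, and attached GFI1 cells were grown in the same way after lentiviral overexpression of GFI1. Floating control cells and floating GFI1 cells were the same lines forced into suspension for 48 hours on ultra-low attachment plates. The study's methods name serum, which itself holds RGD ligands, for maintaining the lines, but they do not give the medium used during suspension. In the vector, the human PGK promoter drove GFI1 together with a GFP marker, and the transduced cells were sorted by GFP. The study's methods name an empty vector for A549 controls injected into mice, but neither they nor the labels say whether the RNA-Seq controls carried it. If they did not, an effect of transduction and an effect of GFI1 cannot be told apart. The labels also do not say whether the 3 libraries of a group came from separate cultures, so p values measure only the spread between these libraries, which may be technical.

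An integrin is a membrane receptor made of 1 alpha and 1 beta subunit. The receptors considered here recognise the tripeptide arginine-glycine-aspartate (RGD) in matrix proteins, and their cytoplasmic tails connect, through talin and kindlin, to actin. ITGA5 pairs with ITGB1 in the main fibronectin receptor. ITGAV pairs with each of the 5 beta subunits: with ITGB3 or ITGB5 it forms vitronectin receptors, and with ITGB6 or ITGB8 it forms receptors that bind RGD in latent TGF-beta, which ITGB6 does mainly in epithelium. ITGA8 pairs with ITGB1 and is best known from kidney development. When an epithelial cell leaves its matrix, these receptors lose their ligands, and cells that depend on them can undergo anoikis.

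Total counts ran from 17014188 to 20748677 per library. The GFI1 counts were 4 to 12 in control libraries and 5154 to 12796 in GFI1 libraries, so each library matched that part of its label. Within a group, pairs of libraries had a chi-square per gene of 1.99 to 11.4, above the value of about 1 that counting alone gives. The pairs of floating GFI1 libraries were at 4.7 to 11.4, highest between replicates 2 and 3, and those of the other groups at 3.59 or less. Of 7 epithelial and A549 markers, 5 were at 1 CPM (a gene's share of the library's counts, scaled to a common total with TMM factors) or more in every library, and EPCAM was at 0.596 to 2.25 CPM in the group means. The summed level of these 7 markers was 18193 to 21073 CPM in control and 5745 to 7526 CPM in GFI1 libraries. AKR1C1 went the other way, from 653.8 to 1386 CPM with GFI1 in attached and from 1125 to 1722 CPM in floating cells. The mean of KRT19 was higher with GFI1 as well, and those of KRT8, KRT18, EPCAM, AKR1B10 and ALDH1A1 were lower in both states. The 3 endothelial markers summed to 0.109 to 0.602 CPM in control and 3.55 to 5.52 CPM in GFI1 libraries, with none at 1 CPM or more in all libraries. The mean of CDH5 went from 0.095 to 3.24 CPM with GFI1 in attached and from 0.098 to 4.03 CPM in floating cells. That of VWF went from 0.078 to 0.863 and from 0.12 to 0.727 CPM, and PECAM1 was at 0.0581 to 0.392 CPM in the group means. Alveolar type II (0.272 to 0.938 CPM over 3 markers), fibroblast (5.41 to 14.1 CPM over 4 markers, with DCN at 0 throughout) and leukocyte markers (0.238 to 1.84 CPM over 4 markers, with CD3E at 0 throughout) stayed low. The part of these marker shifts in the subunit levels was not tested. In bulk RNA, fewer cells that express a gene and less RNA per cell cannot be told apart.

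GFI1 recognises DNA with an AATC core, so the windows upstream of the start sites were read from RefSeq (GRCh38.p14). Of the 8 members, 7 had entries, with 11 windows of 250 bases before a start, and ITGB3 had none. AATC, read on both strands (as AATC or GATT), was found in 6 of the 11 windows, beside 64.8% of all 35114 windows. The longer word AAATCA, read on both strands and holding AATC within it, was found in 3 of the 11 windows, beside 11.6% of all windows. The 3 were the window of ITGB6, 1 of 3 windows of ITGB5 and 1 of 2 windows of ITGAV. A match is only a stretch of letters, and binding of GFI1 was not measured in these libraries. The study's own ChIP-Seq of FLAG-tagged GFI1 in A549 cells lists ITGB1 and ITGB8 among the genes both bound and downregulated. The windows of ITGB6 and ITGB8 are shown because these genes had the largest fitted decreases with GFI1 among the members, and that of ITGB5 because it had the most AATC matches and the opposite direction. Each is printed in the direction of the gene, and the capitals mark AATC or GATT. The windows are cut to the bases outside annotated exons, except the stretch of 30 bases of ITGB6, which reaches into the annotated gene, where its AAATCA lies.
ITGB6, minus strand, chr2:160200314-160200522: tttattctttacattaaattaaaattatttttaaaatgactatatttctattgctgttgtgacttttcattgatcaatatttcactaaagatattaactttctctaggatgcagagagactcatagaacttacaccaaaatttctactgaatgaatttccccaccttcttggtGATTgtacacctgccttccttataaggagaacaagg
ITGB6, 30 bases around AAATCA, minus strand, chr2:160200292-160200321: gaacaaggaagtaAATCatgttgaagttgc
ITGB8, plus strand, chr7:20330650-20330701: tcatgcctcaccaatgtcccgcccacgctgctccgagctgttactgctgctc
ITGB5, minus strand, chr3:124901419-124901668: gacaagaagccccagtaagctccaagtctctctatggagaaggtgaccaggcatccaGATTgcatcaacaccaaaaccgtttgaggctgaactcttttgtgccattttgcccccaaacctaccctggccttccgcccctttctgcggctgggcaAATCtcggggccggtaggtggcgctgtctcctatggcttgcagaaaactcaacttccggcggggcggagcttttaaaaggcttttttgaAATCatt
The matches in ITGB6 began 77 and 36 bases before the start, and those in the printed ITGB5 window 193, 96 and 7 bases before it. The ITGB8 window held no AATC in all its 250 bases. The windows also differed in base composition. That of ITGB6 had 30% G and C and that of ITGB8 had 71.2%, beside a median of 58.0% over all windows.

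Of the 8 members, 7 passed the filter on low counts and were tested. With GFI1 in attached cells, ITGA5, ITGB3 and ITGB5 rose and ITGB1, ITGB6 and ITGB8 fell. In floating cells, ITGB3 and ITGB5 rose and ITGB1, ITGB6 and ITGB8 fell. Calls were made with edgeR (quasi-likelihood test, Benjamini-Hochberg adjustment over all 17829 genes tested) at an adjusted p of 0.05 or less. In attached cells 6 of 7 members changed, where 62.3% of all genes did, with 3 members higher beside 29.5% of all genes and 3 lower beside 32.8%. In floating cells 5 of 7 members changed, where 60.4% of all genes did, with 2 higher beside 29.3% and 3 lower beside 31.1%. As most genes changed with GFI1, these counts are not particular to the members. The median log2 fold change of the 7 members was 0.01 in both states, and that of all genes was -0.007 in attached and 0.011 in floating cells. Of all genes called, 47.4% were higher in attached and 48.5% in floating cells. With libraries scaled by total count alone, these shares were 61.5% and 61.4%, the median of all genes rose to 0.14 in each state, and ITGAV was then called higher in both states and ITGA5 in floating cells as well. Changes are given relative to the TMM scaling from here on.

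Suspension changed fewer members. In control cells it raised ITGA5, ITGB3 and ITGB5 and lowered ITGB6, that is, 4 of 7 members, where 40.1% of all genes changed (3 higher beside 19.6%, and 1 lower beside 20.5%). In GFI1 cells it raised ITGA5 and ITGB5 and lowered ITGB1, that is, 3 of 7 members, where 31.3% of all genes changed (2 higher beside 15.0%, and 1 lower beside 16.3%). The interaction term, which is the GFI1 effect in floating minus that in attached cells, was past the threshold for ITGB1, ITGB3 and ITGB5, that is, 3 of 7 members, where 10.8% of all genes were (1 positive beside 4.76%, and 2 negative beside 6.01%). The median of the 7 members was 0.10 for suspension in control cells and 0.09 in GFI1 cells, and that of all genes was 0.011 and 0.002. The comparisons within a state share libraries with those within a genotype, so they are not independent of each other.

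**Figure D1:**
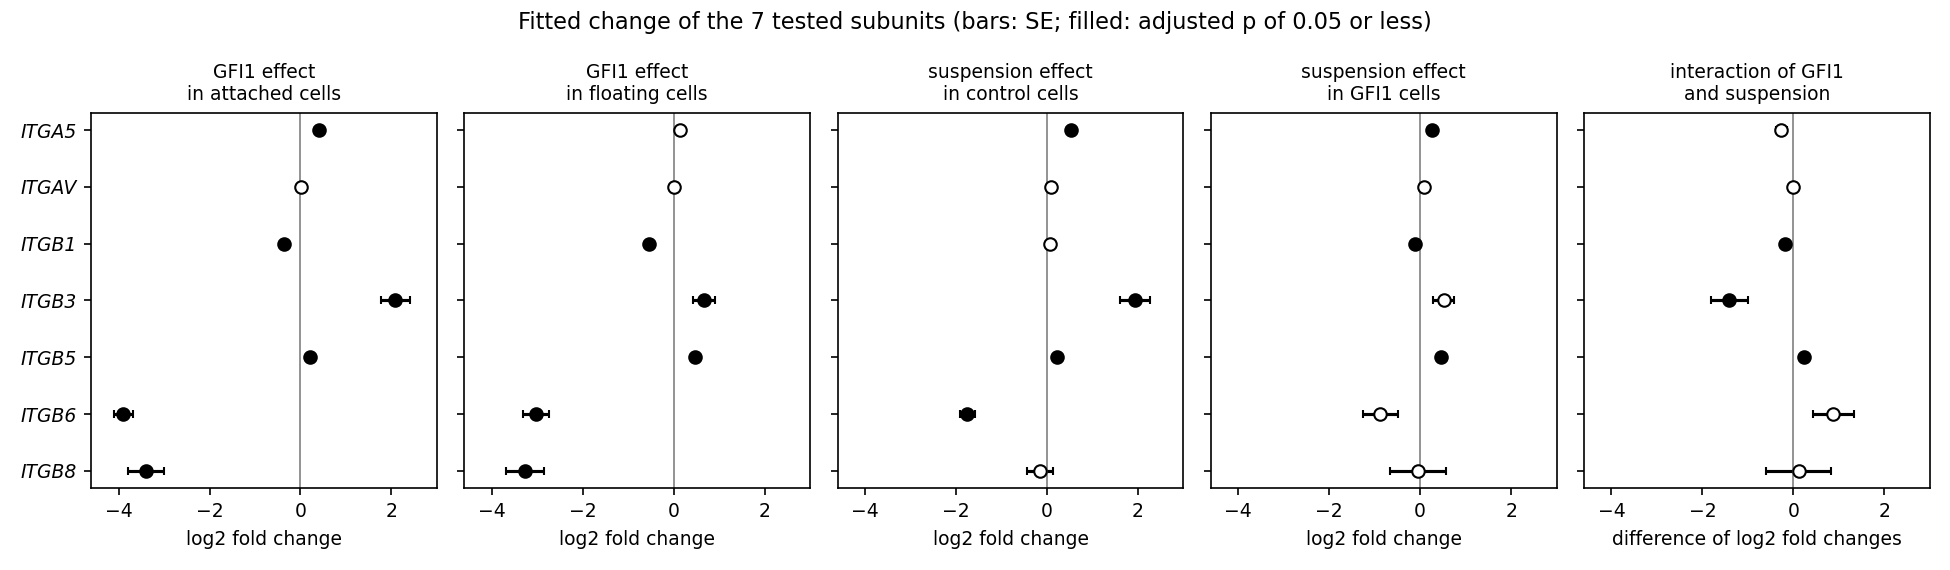
Fitted log2 fold change (x axis) of each tested subunit (rows) in the 5 comparisons, with SE bars and filled points for an adjusted p of 0.05 or less. ITGB6 and ITGB8 lie between -3.90 and -3.02 in both GFI1 panels, while ITGAV lies at 0.01 in both.

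Among the alpha subunits, ITGA5 (ENSG00000161638, minus strand, chr12:54395261-54419460 in GRCh38) was at 88.02, 84.56 and 89.82 CPM in attached control libraries and at 113.5, 116.4 and 118.5 CPM in attached GFI1 libraries. It was at 135.4, 123.2 and 118.1 CPM in floating control libraries and at 129.6, 170.5 and 116.5 CPM in floating GFI1 libraries. All 9 libraries outside attached control thus lay above the attached control libraries, and floating GFI1 replicate 2 stood above all others. In attached cells, ITGA5 rose with GFI1 by 0.41 ± 0.08 (log2, SE; adjusted p 0.000171), from 87.5 ± 2.67 to 116.1 ± 2.51 CPM (SD, n = 3 each, edgeR). In floating cells the groups overlapped, at 125.6 ± 8.90 and 138.9 ± 28.1 CPM (SD, n = 3 each), and the log2 fold change was 0.14 ± 0.08 (adjusted p 0.137, edgeR), or -0.02 without floating GFI1 replicate 2. Without floating GFI1 replicate 3 it was 0.26 (adjusted p 0.00184, edgeR). It passed the threshold as well with library totals as the scale (0.27, adjusted p 0.00458), with upper quartile scaling (0.19, adjusted p 0.0471) and without the low-count filter (0.14, adjusted p 0.0192, edgeR).

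Suspension raised ITGA5 in control cells by 0.52 ± 0.09 (adjusted p 1.90e-05, edgeR). In GFI1 cells the groups overlapped. The rise was 0.26 ± 0.08 (adjusted p 0.0186, edgeR), but it rested on the same library, since it was 0.07 (adjusted p 0.397) without floating GFI1 replicate 2. The call was also lost without attached GFI1 replicate 1 (adjusted p 0.0569, edgeR) and with DESeq2 (adjusted p 0.119). In edgeR it was lost with robust empirical Bayes (adjusted p 0.1675) and with only the groups compared (0.064) as well. The interaction term of ITGA5 was -0.27 ± 0.12 (adjusted p 0.171), and -0.46 (adjusted p 2.25e-05, edgeR) without that library.

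ITGAV (ENSG00000138448, plus strand, chr2:186590065-186680901), the alpha partner shared by all 5 beta subunits, varied least of the tested members across the 12 libraries. It was at 204.9, 206.0 and 210.6 CPM in attached control libraries and at 198.7, 215.7 and 211.7 CPM in attached GFI1 libraries. Floating control libraries held 217.4, 226.3 and 220.4 CPM and floating GFI1 libraries 220.0, 215.2 and 231.6 CPM of it. The GFI1 and control libraries overlapped in both states. The log2 fold change with GFI1 was 0.01 ± 0.04 in attached cells (95% interval -0.08 to 0.10, adjusted p 0.835) and 0.01 ± 0.04 in floating cells (-0.08 to 0.09, adjusted p 0.911, edgeR). With libraries scaled by total count alone, these values were 0.16 (adjusted p 0.00273) and 0.14 (adjusted p 0.00895), close to the 0.14 by which that scaling moved the median of all genes. With suspension, ITGAV differed by 0.10 ± 0.04 in control cells (adjusted p 0.0800), where the groups did not overlap, and by 0.09 ± 0.04 in GFI1 cells (adjusted p 0.114, edgeR). The first of these passed the threshold under 4 of the alternatives, with adjusted p values of 0.0308 to 0.0376.

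ITGA8 (ENSG00000077943, minus strand, chr10:15513949-15720125) had 4 counts over all 12 libraries and at most 2 in any, so it was not tested. At this depth, 3 counts corresponded to 0.139 to 0.181 CPM, and no library exceeded that level for ITGA8.

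Among the beta subunits, ITGB1 (ENSG00000150093, minus strand, chr10:32900319-33005792), the common partner of many alpha subunits, was the most abundant. It was at 2539, 2534 and 2557 CPM in attached control libraries and at 1935, 2019.5 and 1982 CPM in attached GFI1 libraries. In floating control libraries it was at 2642, 2741 and 2578 CPM and in floating GFI1 libraries at 1795, 1816 and 1879 CPM. Each GFI1 library was therefore below each control library, whatever its state. ITGB1 fell with GFI1 by 0.36 on the log2 scale in attached cells (SE 0.04, adjusted p 1.47e-08) and by 0.54 in floating cells (SE 0.04, adjusted p 1.04e-11, edgeR).

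Suspension left ITGB1 at 2654 ± 82.2 CPM in control cells, against 2543 ± 12.2 CPM in attached ones (SD, n = 3 each). This log2 fold change was 0.06 ± 0.04, with a 95% interval of -0.02 to 0.14 (adjusted p 0.234, edgeR). GFI1 cells gave a change of -0.11 ± 0.04 (adjusted p 0.0310, edgeR). That call was lost without attached GFI1 replicate 2 (adjusted p 0.158), attached GFI1 replicate 3 (0.113) or floating GFI1 replicate 1 (0.0792). The interaction was -0.17 ± 0.06 (adjusted p 0.0450, edgeR), a larger decrease in floating cells, and it was also lost when any of 9 of the 12 libraries was left out (adjusted p 0.0679 to 0.155).

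ITGB5 (ENSG00000082781, minus strand, chr3:124761948-124901418), the beta subunit of a vitronectin receptor, moved the other way. It was at 461.2, 469.8 and 455.1 CPM in attached control libraries and at 539.4, 534.2 and 534.3 CPM in attached GFI1 libraries. In floating cells it was at 540.5 and 530.6 CPM in control replicates 1 and 3, with 540.0 ± 9.21 CPM over the 3 (SD), and at 719.3, 808.3 and 699.0 CPM in GFI1 libraries. Attached control libraries were the lowest, floating GFI1 libraries the highest, and the remaining groups lay together between them. ITGB5 rose with GFI1 by 0.21 ± 0.05 in attached cells (adjusted p 0.000261) and by 0.46 ± 0.05 in floating cells (adjusted p 3.25e-09, edgeR). It also rose with suspension, by 0.22 ± 0.05 in control cells (adjusted p 0.000305) and by 0.47 ± 0.05 in GFI1 cells (adjusted p 1.41e-08, edgeR). The interaction was 0.24 ± 0.06 (adjusted p 0.0143, edgeR), and without floating GFI1 replicate 2 it was 0.16 (adjusted p 0.0653).

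ITGB3 (ENSG00000259207, plus strand, chr17:47253846-47311816), the other vitronectin receptor beta subunit, was scarce. It had 13, 19 and 3 counts in attached control libraries and 48, 76 and 45 in attached GFI1 libraries, or 0.774, 1.03 and 0.172 against 2.70, 3.51 and 2.25 CPM. In floating control libraries it had 52, 41 and 37 counts and in floating GFI1 libraries 76, 74 and 79, or 3.08, 2.47 and 2.10 against 4.19, 4.08 and 3.93 CPM. The attached control libraries were below all others, and the floating GFI1 libraries were above all others. ITGB3 rose with GFI1 by 2.08 ± 0.32 in attached cells (adjusted p 3.48e-06, edgeR), and by 1.63 to 2.58 with any single library left out. In floating cells the rise was 0.67 ± 0.24 (adjusted p 0.0193, edgeR), and it passed the threshold neither without floating control replicate 2 (adjusted p 0.0521) nor without replicate 3 (0.0907).

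Suspension raised ITGB3 in control cells by 1.93 ± 0.33 (adjusted p 3.68e-05, edgeR). In GFI1 cells the groups also did not overlap, but the change of 0.52 ± 0.23 had an adjusted p of 0.0973. The interaction of ITGB3 was -1.41 ± 0.41 (adjusted p 0.0269, edgeR). It was -0.96 (adjusted p 0.103) without attached control replicate 3, the library with 3 counts, and was lost as well without attached GFI1 replicate 2 (-1.20, adjusted p 0.0830) or floating control replicate 1 (-1.25, adjusted p 0.0805). Of the exon bases of ITGB3 in GENCODE release 44, 33.2% are shared with a readthrough model on the same strand, AC068234.1, which had 0 counts. How reads in such shared exons were counted is not given in the sources used here, so the level of ITGB3 is uncertain. ILK and CDC42, which overlap other models too, were listed at 0.893 to 3.46 and 0.923 to 2.15 CPM, and the effect of overlaps was not tested.

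ITGB6 (ENSG00000115221, minus strand, chr2:160099666-160200313), whose receptor binds latent TGF-beta, had the largest fitted change among the members. It was at 8.10, 8.09 and 10.5 CPM in attached control libraries and at 0.563, 0.554 and 0.651 CPM in attached GFI1 libraries. In floating control libraries it was at 3.14, 2.59 and 2.21 CPM and in floating GFI1 libraries at 0.331, 0.276 and 0.348 CPM. The 4 groups did not overlap in any pair. The counts behind these levels were 136, 149 and 183 in attached control, 10, 12 and 13 in attached GFI1, 53, 43 and 39 in floating control, and 6, 5 and 7 in floating GFI1 libraries. ITGB6 was 14.9-fold lower with GFI1 in attached cells (adjusted p 2.74e-14) and 8.13-fold lower in floating cells (adjusted p 1.54e-09, edgeR).

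Suspension also lowered ITGB6, by 3.36-fold in control cells (log2 fold change -1.75 ± 0.17, adjusted p 6.89e-09, edgeR). In GFI1 cells, where the counts were lowest, the log2 fold change was -0.87 ± 0.38 (adjusted p 0.0874). The difference between the GFI1 effects in the 2 states was 0.88 ± 0.45 (adjusted p 0.247, edgeR). The transcript model AC092153.1 shares 16.7% of the exon bases of ITGB6 on the same strand, and it had 142 counts over all libraries.

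ITGB8 (ENSG00000105855, plus strand, chr7:20330702-20415754), the beta subunit of another receptor for latent TGF-beta, was scarce in control cells and close to the floor with GFI1. It had 33, 48 and 34 counts in attached control, 2, 7 and 3 in attached GFI1, 35, 32 and 33 in floating control, and 7, 3 and 1 in floating GFI1 libraries. In CPM these were 1.97, 2.61 and 1.95, then 0.113, 0.323 and 0.150, then 2.08, 1.93 and 1.87, then 0.386, 0.165 and 0.0497. Every GFI1 library was below every control library, and attached and floating libraries overlapped in both genotypes. Summed over 3 libraries, the 12 counts of attached GFI1 had an exact 95% Poisson interval of 6.20 to 21.0 and the 11 counts of floating GFI1 one of 5.49 to 19.7, for counting error only. ITGB8 fell with GFI1, with a fitted log2 fold change of -3.39 ± 0.40 when attached (adjusted p 6.20e-08) and of -3.28 ± 0.42 when floating (adjusted p 2.16e-07, edgeR). With 3 counts or fewer in 4 of the 6 GFI1 libraries, the size of the decrease is poorly fixed. Leaving out single libraries gave -3.97 to -3.15 in attached cells, the lowest without GFI1 replicate 2, and -4.13 to -2.80 in floating cells, the lowest without GFI1 replicate 1 and the highest without GFI1 replicate 3. The change with suspension was -0.16 ± 0.28 in control cells (95% interval -0.74 to 0.43, adjusted p 0.707) and -0.04 ± 0.62 in GFI1 cells (-1.32 to 1.24, adjusted p 0.972, edgeR). The second interval holds 2-fold changes in both directions.

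**Figure D2:**
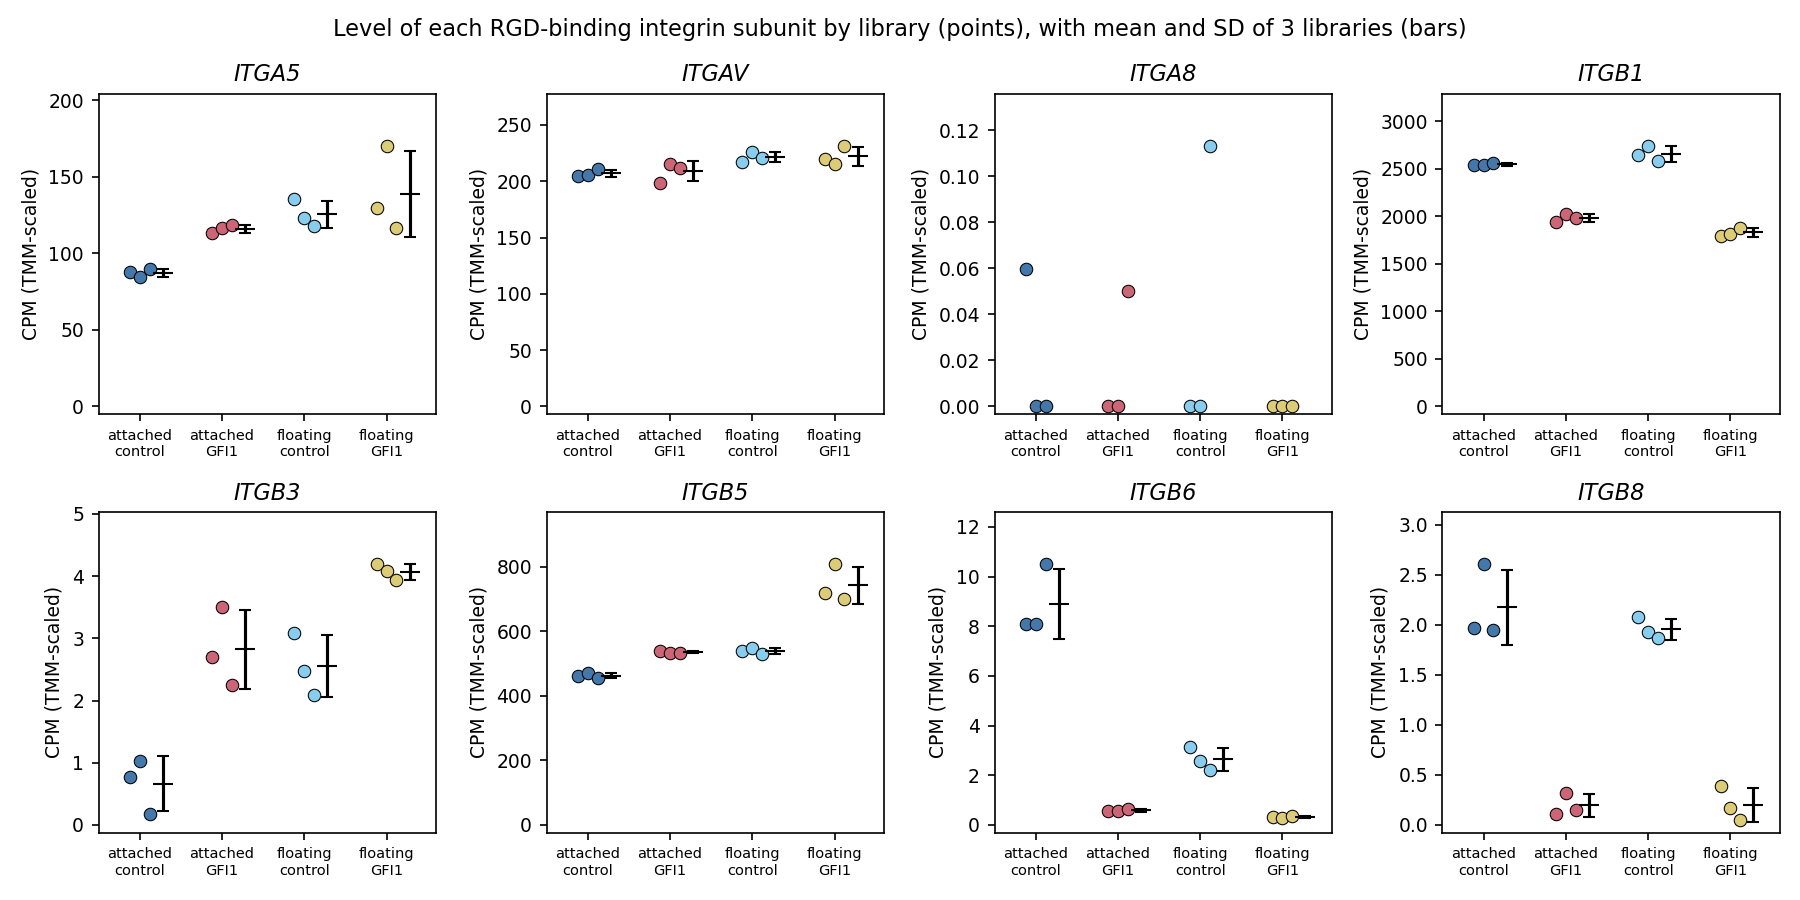
Level of each subunit in CPM (y axis, linear, a separate range per panel) for each library (points) by group (x axis), with the mean and SD of 3 libraries as bars, not drawn for ITGA8. ITGB6 and ITGB8 are low in all 6 GFI1 libraries, ITGB1 is lower in GFI1 than in control libraries, and ITGB5 is highest in floating GFI1 libraries.

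Levels of different genes were compared per kb of gene model, with the lengths in the deposited table. In attached control cells the order was ITGB1 (423 CPM per kb), ITGB5 (71.7), ITGAV (25.2), ITGA5 (11.5), ITGB6 (1.90), ITGB3 (0.150) and ITGB8 (0.143). The last 2 did not differ beyond their spread, at 0.150 ± 0.1004 and 0.143 ± 0.0247 CPM per kb (SD, n = 3). In attached GFI1 cells ITGB3 (0.642) stood above ITGB6 (0.126), and ITGB8 (0.0129) was the lowest. In floating control cells ITGB3 (0.580 ± 0.113) and ITGB6 (0.565 ± 0.10) did not differ beyond their spread. In floating GFI1 cells ITGB3 (0.926) stood above ITGB6 (0.0679), ITGB8 (0.0132) was again the lowest, and the 4 most abundant members kept the order they had in attached control cells.

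**Figure D3:**
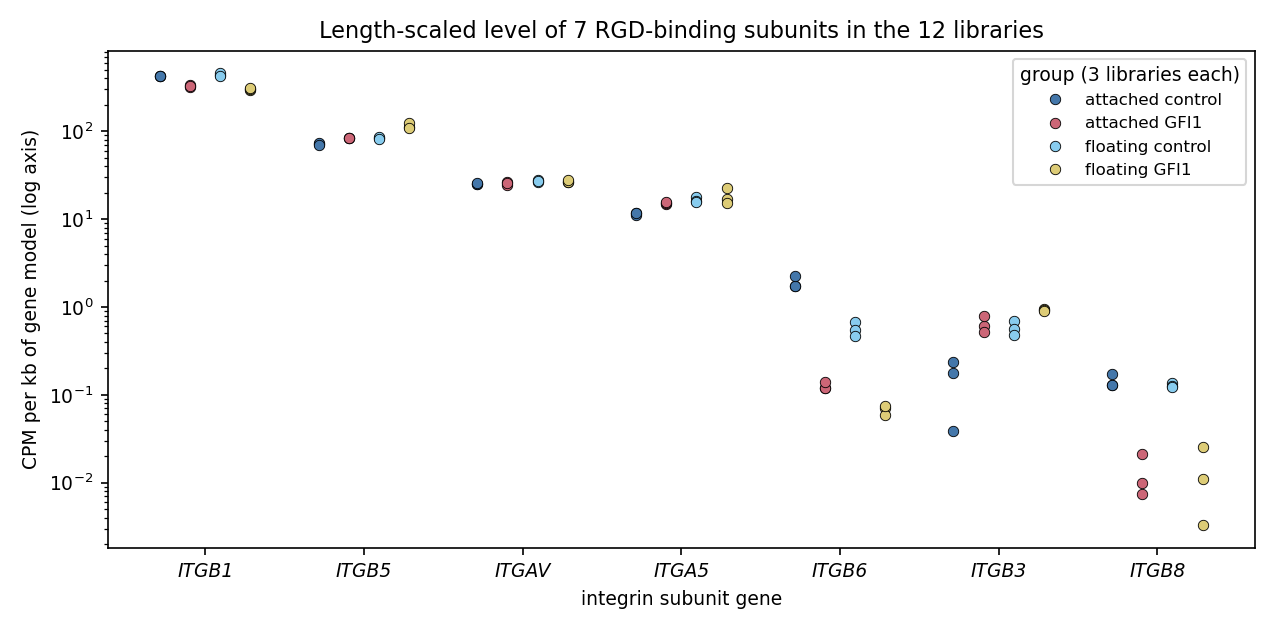
CPM per kb of gene model (y axis, log scale) of the 7 tested subunits in each of the 12 libraries, coloured by group. ITGB1, ITGB5, ITGAV and ITGA5 keep their order in all 4 groups, while ITGB6 and ITGB3 change places between attached control and GFI1 libraries.

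Per kb, ITGB1 made up 85.1% ± 0.230 of the mRNA of the 5 beta subunits in attached control, 79.7% ± 0.414 in attached GFI1, 83.9% ± 0.197 in floating control and 72.4% ± 1.79 in floating GFI1 cells (SD, n = 3 each). ITGB5 made up most of the rest, at 14.4% ± 0.256, 20.1% ± 0.429, 15.9% ± 0.191 and 27.4% ± 1.79 in the same order. The share of ITGB1 was thus lowest, and that of ITGB5 highest, in the floating GFI1 libraries. The ratio of ITGB1 to ITGB5 per kb was 5.91 ± 0.121 in attached control, 3.96 ± 0.105 in attached GFI1, 5.27 ± 0.0757 in floating control and 2.66 ± 0.237 in floating GFI1 cells. The ratio of ITGB1 to its fibronectin receptor partner ITGA5 was 36.7 ± 0.984, 21.5 ± 0.397, 26.7 ± 1.86 and 17.1 ± 3.47, and that of all 5 beta to all 3 alpha subunits was 13.5 ± 0.209, 10.1 ± 0.205, 12.1 ± 0.274 and 9.28 ± 0.448. These shares and ratios are descriptions of mRNA and carry no test, and surface receptors were not measured in these libraries. In separate experiments, the study reports less ITGB1, ITGB6 and ITGB8 by immunoblot with GFI1, and fewer GFI1-expressing A549 cells adhering to fibronectin.

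Other integrin subunits include those of receptors for collagen, laminin or cell surface ligands, but not all of them fall in these classes. Of 18 listed, 17 were tested, of which 9 rose and 5 fell with GFI1 in attached cells (median log2 fold change 0.73, beside -0.007 over all genes) and 8 rose and 7 fell in floating cells (median 0.05, beside 0.011). With suspension, 6 rose and 1 fell in control cells and 5 rose and 1 fell in GFI1 cells. Of all genes, 29.5% were called higher and 32.8% lower with GFI1 in attached cells, and 29.3% and 31.1% in floating cells. For suspension these shares were 19.6% and 20.5% in control and 15.0% and 16.3% in GFI1 cells. ITGA2B, the platelet alpha subunit that binds RGD together with ITGB3, was at 1.69 CPM in attached control and rose with GFI1 in both states (attached 0.76 ± 0.25, adjusted p 0.0117, and floating 0.86 ± 0.28, adjusted p 0.0113, edgeR). Among those that rose with GFI1, ITGA10, a collagen-binding partner of ITGB1, had the lowest p but not the largest rise. It went from 4.95 to 97.4 CPM when GFI1 was present in attached cells (a log2 change of 4.29 ± 0.07, adjusted p 3.23e-25) and from 15.02 to 131.6 CPM in floating cells (3.13 ± 0.06, adjusted p 2.51e-24, edgeR). ITGA3, a laminin-binding partner of ITGB1 and the most abundant of the list per kb, rose by 0.32 ± 0.04 and 0.29 ± 0.04 (adjusted p 5.23e-07 and 3.44e-06, edgeR). ITGA6, a laminin-binding subunit, had the lowest p among those that fell, from 135.2 to 35.4 CPM in attached and from 175.8 to 41.9 CPM in floating cells (-1.93 ± 0.07 and -2.07 ± 0.06, adjusted p 1.19e-18 and 1.96e-19, edgeR). ITGAE fell by 0.53 and 0.39 (SE 0.09 each, adjusted p 6.21e-06 and 0.000595, edgeR). ITGAM, at 0.333 to 1.02 CPM, differed by -0.46 ± 0.33 in attached cells (adjusted p 0.227) and fell by 1.58 in floating cells (SE 0.37, adjusted p 0.000719, edgeR).

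**Figure D4:**
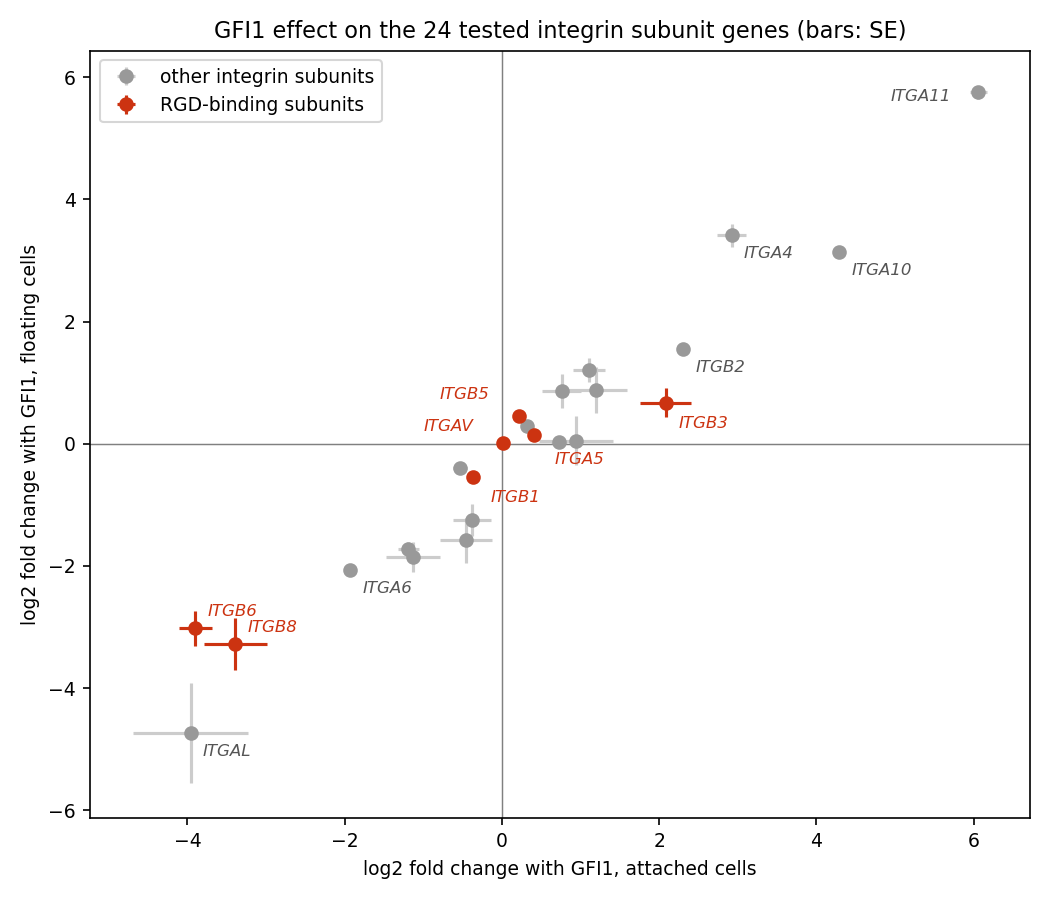
Log2 fold change with GFI1 in attached (x axis) and floating cells (y axis) of the 24 tested integrin subunit genes, with SE bars. The 7 RGD-binding subunits (red) range from -3.90 to 2.08 in attached cells. ITGA10, whose rise was not the largest, lies at 4.29 and 3.13.

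The genes for ligands with an RGD motif changed in both directions. Of 16 listed, 14 were tested, of which 7 rose and 7 fell with GFI1 in attached cells (median 0.12) and 6 rose and 6 fell in floating cells (median -0.16). Among all genes, 29.5% were called higher and 32.8% lower in attached cells, and 29.3% and 31.1% in floating cells. FN1, fibronectin, the main ligand of ITGA5 with ITGB1, was at 1553 CPM in attached control and 677.6 CPM in attached GFI1 cells (-1.20 ± 0.04, adjusted p 8.81e-18, edgeR). In floating cells it was at 4046 CPM in control and 1124 CPM in GFI1 cells (-1.85 ± 0.05, adjusted p 1.37e-21, edgeR). FN1 rose with suspension by 1.38 ± 0.04 in control and by 0.73 ± 0.04 in GFI1 cells (adjusted p 8.02e-18 and 3.69e-12, edgeR). FN1 and ITGB1 thus both fell with GFI1 in each state. THBS1, thrombospondin, rose with GFI1 in attached cells (0.58 ± 0.06, adjusted p 3.23e-09) and fell in floating cells (-0.66 ± 0.06, adjusted p 7.16e-10), with an interaction of -1.24 ± 0.08 (adjusted p 2.81e-10, edgeR). FGA, the fibrinogen alpha chain, fell from 36.2 to 0.249 CPM in attached and from 58.9 to 0.337 CPM in floating cells (adjusted p 1.06e-22 and 5.95e-24, edgeR). CCN1, a matricellular ligand, fell with GFI1 (-0.83 ± 0.07 and -0.80 ± 0.09, adjusted p 3.86e-11 and 1.17e-08) and fell further with suspension (-1.59 ± 0.07 in control and -1.57 ± 0.08 in GFI1 cells, adjusted p 4.27e-15 and 1.1e-13, edgeR).

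TGFB1, whose latent form is a ligand of the receptors with ITGB6 and ITGB8, rose with GFI1 from 165.0 to 468.4 CPM in attached cells (1.51 ± 0.06, adjusted p 1.21e-16) and from 182.1 to 505.1 CPM in floating cells (1.47 ± 0.06, adjusted p 1.78e-16, edgeR). The ligand gene thus rose in both states in which ITGB6 and ITGB8 fell. Of 6 listed carriers of latent TGF-beta, 5 were tested, of which 2 rose and 3 fell in attached cells (median -1.01) and 1 rose and 3 fell in floating cells (median -0.83). Of all genes, 29.5% were called higher and 32.8% lower in attached cells, and 29.3% and 31.1% in floating cells. Their medians were -0.007 and 0.011. With 5 carriers tested, each median of this list is the value of 1 gene, LTBP2. LTBP3 rose from 291.1 to 858.9 CPM in attached cells (1.56 ± 0.04, adjusted p 2.89e-20) and by 1.48 ± 0.04 in floating cells (adjusted p 8.17e-20, edgeR). LTBP4 fell from 266.6 to 62.4 CPM in attached cells (-2.10 ± 0.05, adjusted p 4.35e-22) and by 1.78 on the log2 scale in floating cells (SE 0.05, adjusted p 1.75e-20, edgeR). LTBP1 rose in attached cells by 0.44 ± 0.07 (adjusted p 2.62e-06) and was at 0.01 ± 0.07 in floating cells (adjusted p 0.909, edgeR).

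Among the proteins that act on the cytoplasmic tails of beta subunits, the 5 listed activators were all tested, and suspension lowered most of them. With GFI1, 0 rose and 3 fell in attached cells (median -0.23), and 1 rose and 2 fell in floating cells (median -0.34). With suspension, 0 rose and 4 fell in control (median -0.24) and in GFI1 cells (median -0.31). Of all genes, 20.5% were called lower with suspension in control and 16.3% in GFI1 cells. With GFI1, 29.5% of all genes were called higher and 32.8% lower in attached cells, and 29.3% and 31.1% in floating cells. FERMT2, a kindlin that binds the beta tail, fell with GFI1 from 59.3 to 31.8 CPM in attached and from 53.6 to 25.6 CPM in floating cells (-0.90 ± 0.06 and -1.07 ± 0.06, adjusted p 7.98e-13 and 6.38e-14, edgeR). TLN1, the main talin, was at 0.02 ± 0.04 with GFI1 in attached cells (adjusted p 0.637) and rose by 0.15 ± 0.04 in floating cells (adjusted p 0.00180, edgeR). TLN2 fell with suspension in control and in GFI1 cells (-0.71 ± 0.09 and -0.63 ± 0.09, adjusted p 2.52e-07 and 3.12e-06, edgeR). Of the 8 listed inhibitors of activation, all tested, 2 rose and 3 fell with GFI1 in each state (medians -0.04 and -0.09). KANK2 rose (0.78 ± 0.05 and 0.88 ± 0.05, adjusted p 7.19e-14 and 1.01e-14) and KANK1 fell (-0.56 ± 0.09 and -0.88 ± 0.09, adjusted p 9.46e-06 and 4.20e-09, edgeR). FLNA, a filamin that competes with talin for the tail, fell with GFI1 from 4144 to 1858 CPM in attached cells (-1.16 ± 0.05, adjusted p 3.53e-17, edgeR). In floating cells FLNA fell with GFI1 too (-0.74 ± 0.05, adjusted p 3.10e-13, edgeR). It also fell with suspension in control cells by 1.11 on the log2 scale (SE 0.05, adjusted p 1.33e-15, edgeR).

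The focal adhesion scaffold, with all 13 listed genes tested, had 4 genes higher and 6 lower with GFI1 in attached cells (median -0.30) and 6 higher and 4 lower in floating cells (median 0.21). With suspension, 2 rose and 8 fell in control cells (median -0.59), and 1 rose and 5 fell in GFI1 cells (median -0.17). Over all genes, 29.5% were called higher and 32.8% lower with GFI1 in attached cells, and 29.3% and 31.1% in floating cells. The shares for suspension were 19.6% and 20.5% in control and 15.0% and 16.3% in GFI1 cells. The tensins, which bind beta tails and actin, differed among themselves. TNS1 rose with GFI1 (attached 2.61 ± 0.21, floating 1.98 ± 0.17, adjusted p 5.08e-11 and 1.72e-10, edgeR). TNS2 rose too (1.10 ± 0.05 and 0.83 ± 0.05, adjusted p 1.05e-15 and 2.80e-13, edgeR). TNS3 fell from 854.5 to 223.6 CPM in attached and from 386.6 to 119.0 CPM in floating cells (-1.93 ± 0.05 and -1.70 ± 0.05, adjusted p 6.18e-21 and 1.50e-19, edgeR). ACTN4, an actin crosslinker, fell with GFI1 (-0.91 ± 0.04 attached and -0.63 ± 0.04 floating, adjusted p 1.20e-15 and 2.49e-12, edgeR). It also fell with suspension in control cells by 0.70 (SE 0.04, adjusted p 1.63e-12, edgeR).

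Of 12 focal adhesion signaling genes, all tested, 3 rose and 7 fell with GFI1 in attached cells (median -0.36) and 3 rose and 8 fell in floating cells (median -0.25). Beside these counts, 29.5% of all genes were called higher and 32.8% lower in attached cells, and 29.3% and 31.1% in floating cells. BCAR1, the docking protein p130Cas of integrin signals, rose from 90.6 to 295.2 CPM in attached and from 85.8 to 395.8 CPM in floating cells (1.70 ± 0.05 and 2.21 ± 0.05, adjusted p 1.85e-20 and 1.09e-22, edgeR). SRC, the kinase that acts on it, rose by 0.76 ± 0.04 and 0.59 ± 0.04 (adjusted p 4.82e-14 and 5.61e-12, edgeR). PTK2B, a kinase related to FAK, fell by 1.12 and 1.65 on the log2 scale (SE 0.06 each, adjusted p 4.95e-15 and 2.48e-18, edgeR), and PAK4 fell by 0.74 and 0.80 (SE 0.05 each, adjusted p 3.16e-12 and 8.46e-13, edgeR). RHOA fell by 0.44 and 0.33 and CRK by 0.28 and 0.18 (adjusted p from 9.74e-10 to 0.00146, edgeR).

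Of 11 genes of integrin endocytosis and recycling, 9 were tested, of which 2 rose and 5 fell with GFI1 in each state (medians -0.12 and -0.17). All genes had 29.5% called higher and 32.8% lower in attached cells, and 29.3% and 31.1% in floating cells. DAB2, an endocytic adaptor for ITGB1, rose from 12.3 to 26.1 CPM in attached and from 8.19 to 19.9 CPM in floating cells (1.09 ± 0.08 and 1.28 ± 0.09, adjusted p 5.76e-12 and 1.59e-12, edgeR). ARF6, a GTPase of the recycling route, fell by 0.46 and 0.29 (SE 0.04 each, adjusted p 5.03e-10 and 1.60e-06, edgeR). NUMB, another adaptor, rose by 0.32 ± 0.04 in attached cells (adjusted p 1.07e-06) and was at 0.10 ± 0.04 in floating cells (adjusted p 0.0520, edgeR). RAB11A fell by 0.12 and 0.17 (adjusted p 0.0244 and 0.00219, edgeR), while RAB21 was at 0.02 ± 0.06 in attached cells and rose by 0.23 ± 0.06 in floating cells (adjusted p 0.744 and 0.00152, edgeR). The lists, their shares called and the share of all genes called are given as descriptions, with no test of a list as a whole.

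The patterns across the 12 libraries were also set beside those of other protein-coding genes whose log2 CPM averaged 1 or more, by Pearson's r of log2 CPM over the 12 libraries. The points of these correlations share libraries and groups, so they are given as descriptions. Most like ITGB1 were DIAPH2 (r = 0.996) and MID1 (0.994), which fell from 28.1 to 9.95 and from 374.1 to 116.8 CPM between attached control and attached GFI1 cells. Most like ITGB5 were STC2 (0.990) and MKNK2 (0.987), and STC2 was at 44.6 CPM in attached control and 314.7 CPM in floating GFI1 cells. Most like ITGB6 were MCMBP (0.994) and MRTFA (0.994), and most like ITGB8 were RASSF3 (0.988) and BMPER (0.980). For ITGA5 they were GPRC5A (0.977) and ITGB4 (0.960), the latter at 119.9, 199.4, 278.0 and 284.2 CPM in attached control, attached GFI1, floating control and floating GFI1 cells. For ITGB3 they were TSG101 (0.969) and PEX7 (0.953). For ITGAV, which varied least, the values were lower, at 0.897 for REEP5 and 0.857 for CTBS.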

How the data were processed

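The authors sequenced poly-A RNA of 12 libraries on an Illumina NovaSeq instrument. The deposited values are raw counts per gene. The study's methods name Hisat2, featureCounts and GRCh38, while the submitters' processing notes name Bowtie2, HTSeq and hg38. The strand setting and annotation release are not given in the sources used here, and antisense reads may be included. GENCODE release 44 holds 99.1% of the identifiers. Groups came from the labels. The analysis used edgeR 4.0.16 under R 4.3.3, with filterByExpr on the 4 groups (minimum count 10, minimum total 15), which left 17829 genes, TMM scaling, 1 quasi-likelihood model of 4 group means and 5 two-sided contrasts, with Benjamini-Hochberg adjustment over all genes tested at 0.05. SE values are the log2 fold change divided by the square root of the F statistic, and intervals are at the 95% level. Log2 CPM used a prior count of 2, and intervals for counts cover counting error only. Upstream sequences were those of RefSeq.

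Named genes were the 8 members, ITGA2B, per list and pairwise comparison the most abundant gene and, for each direction, the gene of lowest adjusted p, and the 2 genes most like each tested member. Of these, 1 is not reported here. The members and lists were chosen with earlier results of these data known. Alternatives for scaling were RLE, upper quartiles and plain totals. Low counts were alternatively left unfiltered or required to reach 10 in all libraries. The model was alternatively replaced by DESeq2 1.42.0, fitted with robust empirical Bayes, restricted to the groups of a contrast, or given a replicate block. A 2-fold change was added to the call, each library was left out in turn, and longest-transcript lengths and Spearman's coefficient were tried. The code was tested on simulated data.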

Additional observations from a re-analysis of the deposited data

Results flagged for a closer look

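The GFI1 effect differed between attached and floating cells for 3 members, by the interaction term of edgeR's quasi-likelihood model. It was -0.17 for ITGB1, -1.41 for ITGB3 and 0.24 for ITGB5 on the log2 scale. ITGB1 thus fell more and ITGB5 rose more with GFI1 in floating than in attached cells, and ITGB3 rose less. All 3 terms were past the threshold with all 12 libraries, and each lost it without at least 1 of them, as given with the results.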

How the results depend on the processing

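Over the 7 tested members and 5 comparisons, 544 alternative values were computed, of which 483 kept their direction and side of the threshold, 28 fell short of the threshold, 14 newly passed it and 19 changed sign, all of them for changes that had not been called. The decreases of ITGB1, ITGB6 and ITGB8 and the increases of ITGB5 with GFI1 were called under each alternative in which these genes were tested, the 2-fold requirement aside. With at least 10 counts in every library, only the 4 abundant members were tested, and 3 were called for GFI1 in attached and 2 in floating cells. With a 2-fold change required as well, 3 members were called in attached and 2 in floating cells, 2 for suspension in control cells, 0 in GFI1 cells (where 3 had an adjusted p of 0.05 or less) and 1 for the interaction, beside 3247, 3078, 909, 500 and 241 of all genes. Leaving out single libraries gave 1 to 3 members called for the interaction. With DESeq2, 6, 5, 4, 2 and 3 members were called. Replicate numbers did not pair the libraries: deviations of same-numbered libraries correlated by -0.0306 to 0.0311, and 0 of 12 libraries correlated best with their own number in every other group. With a replicate block, 6, 5, 4, 3 and 2 members were called, since the interaction of ITGB1 had an adjusted p of 0.0604, and 11054, 10713, 7110, 5546 and 1904 genes in all.

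With longest-transcript lengths, the share of ITGB1 was 81.0%, 74.4%, 79.4% and 66.0%, and that of ITGB5 18.6%, 25.5%, 20.4% and 33.8%, in attached control, attached GFI1, floating control and floating GFI1 cells. Without the low-count filter, the log2 fold change of ITGAV with GFI1 in attached cells was -0.008 and its interaction 0.012. Leaving out single libraries moved ITGAV from -0.015 to 0.047 with GFI1 in attached cells, from -0.025 to 0.036 in floating cells and from -0.035 to 0.028 for the interaction, ITGA5 from -0.024 to 0.257 with GFI1 in floating cells, and ITGB8 from -0.91 to 0.54 for suspension in GFI1 cells and from -0.76 to 0.70 for the interaction. The cause of these changes was not tested. Low counts limit the values of ITGA8, ITGB8, ITGB3 and, with GFI1, ITGB6. Spearman's coefficient was lower than Pearson's r for each gene named as most like a member, at 0.811 to 0.993. Ranked by Spearman's coefficient, these genes stood between place 1 (DIAPH2 for ITGB1) and place 754 (MRTFA for ITGB6, of 11886 genes compared). Most of them were thus not the genes most alike by that measure.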
